A study of Bos taurus with 8 samples.

Results

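Acute-phase and complement plasma proteins form a set of 7 genes here: AHSG, ITIH4, C3, CFB, HP, SAA3 and SERPINA1. They were chosen by gene name among the 15008 probes of a bovine array, and each had 1 probe, so that the brightest probe of a gene was also its only one. The genes were taken with their diet differences in view, AHSG and ITIH4 because they had gone the same way in every calf, so the differences between diets below are a description without a p-value. The arrays came from rumen epithelium of Holstein bulls with a rumen fistula, 7.4 months old on average over the 5 animals of the cross-over, and 4 of these animals, calves 21, 23, 24 and 25, were analysed. Every calf was sampled on a high-grain control diet with corn flakes and on the WP diet, in which wood kraft pulp, a fibre of nearly pure cellulose, took the place of part of the corn flakes; each diet was fed for 14 days with no wash-out between them. All 8 arrays thus came from animals on high grain, and none from an animal on a forage diet. Which diet each calf received first is not given in the labels or the series text. The series asks how the rumen epithelium responds to the pulp during a high-grain challenge.

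Plasma proteins of the acute phase are made mainly by the liver, which raises their output in response to interleukin 6 and interleukin 1 released at a site of inflammation. In cattle haptoglobin and serum amyloid A are the plasma markers most used for this, ITIH4 rises with them, and fetuin-A, the product of AHSG, falls. The complement system is a cascade of plasma proteases in which C3 is cut by an enzyme that contains the active part of factor B; C3 and factor B are also made by epithelia and macrophages outside the liver. Grain fermentation lowers rumen pH and releases bacterial endotoxin next to the epithelium.

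Of the 7 genes, AHSG, ITIH4 and CFB were well above background on 8 of 8 arrays, C3 on 5, and HP, SAA3 and SERPINA1 on 1. The 4 genes above background on at least 4 arrays passed the filter for testing, as did 10236 of 15008 probes (68.2%). Markers of the labelled tissue were present: 14 of 15 rumen epithelium markers on the array were above background on all 8 arrays, and KRT4 was so only on the WP array of calf 24. That array stands apart. Its negative control spots had a median signal of 4.06, against 1.2 to 1.9 on the other arrays, and its control probes for the viral E1A sequence read 40.7, against 1.36 to 1.97. Of 3450 probes below background on the other 7 arrays, 42.3% were above background on it, while the same share ran from 0.50% to 7.06% for the other arrays.

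**Figure D1:**
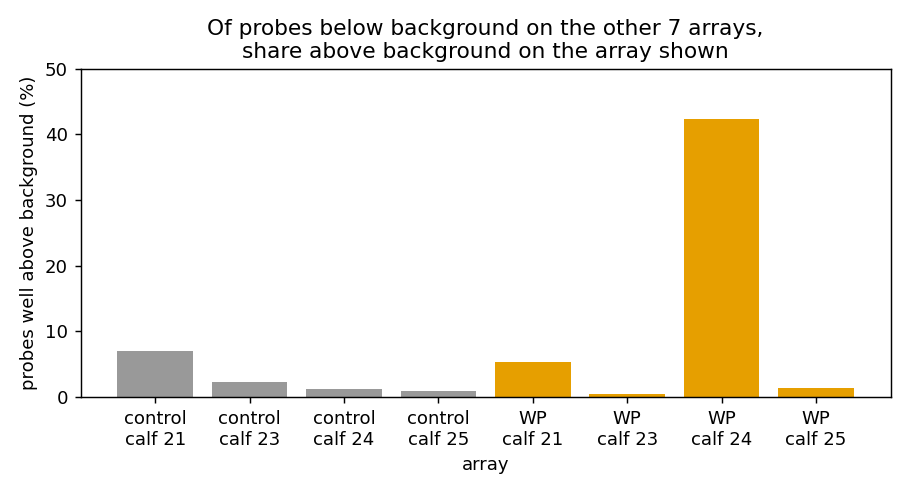
Dim probes that read above background on 1 array alone: the vertical axis is the percentage of the probes below background on the other 7 arrays that were well above background on the array shown, with control arrays in grey and WP arrays in orange. The WP array of calf 24 reached 42.3%, and the next highest was 7.06% on the control array of calf 21.

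AHSG encodes fetuin-A, a liver glycoprotein that binds calcium phosphate and goes down in plasma in the acute phase. Its signal was lower on the WP diet in every calf. The probe, shown because the diet difference rests on this single sequence, was mapped by the array design to chromosome 1, 81203522 to 81204439 on UMD 3.1, minus strand, an interval of 918 bases for a probe of 60 bases. Here and for the other probes the exon or UTR was not analysed.
AHSG: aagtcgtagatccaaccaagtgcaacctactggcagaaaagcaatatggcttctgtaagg

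The processed signal of AHSG was 59.2, 146, 61.3 and 43.2 on the control arrays of calves 21, 23, 24 and 25, and 7.85, 27.4, 30.1 and 27.4 on their WP arrays. The diets did not overlap: the lowest control array lay above the highest WP array, and calf 21 on WP was the lowest of all. A level is written from here on as log2 of the processed signal minus the 75th percentile of the same array, so that 0 is that percentile. The level of AHSG was -1.98 ± 0.68 on the control diet and -3.47 ± 0.81 on WP (SD, n = 4). The within-calf difference, WP minus control, was -1.49 ± 0.68 (SD, n = 4 calves), or 2.81-fold more signal on control. By calf it was -2.22 (calf 21), -1.90 (calf 23), -1.04 (calf 24) and -0.81 (calf 25). Of the probes tested with values on all arrays, 35.6% were below 0, 5.41% were lower in 4 of 4 calves and 1.19% lower without overlap of the diets. With the normexp background correction, which adds an offset that compresses dim signals, the difference was -0.50.

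Other genes typical of liver went both ways between the diets. Of 18 hepatocyte markers, all on the array, 7 passed the filter, 4 with negative and 3 with positive differences and a median of -0.14, beside 0.09 over all tested probes; leaving out calf 21 or calf 23 turned the list's median to 0.09 and 0.20. ALB, the gene of serum albumin, was above background on both arrays of calf 25 alone, reading 147 on control and 29.0 on WP. APOH and TF were so too, at 67.1 and 62.2 on control and 19.9 and 20.6 on WP. CYP2E1 was so on both arrays of calf 24 alone, at 14.2 on control and 20.9 on WP. APOB, APOC3 and F9 were among those above background on no array. The summed linear level of the hepatocyte markers ran from 9.29 to 30.0 times the 75th percentile on control arrays and from 6.50 to 21.8 on WP arrays. ARG1, at signals of 174 to 5836, APOA2, at 745 to 1874, and RBP4, at 86.1 to 910, carry these sums. The part of liver-type transcripts in the AHSG signal was not tested. In such bulk tissue, fewer cells that express a gene and less RNA per cell cannot be told apart.

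ITIH4 encodes a heavy chain of the inter-alpha-trypsin inhibitor family, a plasma protein that rises in cattle with inflammation. In the rumen wall it was the member with the smallest spread, and it was higher on WP in every calf. Its probe lies at chromosome 22, 48630314 to 48630373 on UMD 3.1, plus strand. The signal was 45.5, 36.7, 59.6 and 43.1 on the control arrays of calves 21, 23, 24 and 25, and 50.6, 55.6, 99.9 and 71.4 on WP. Before scaling the diets overlapped, since calf 24 on control exceeded calves 21 and 23 on WP; after scaling they did not. Its level was -2.58 ± 0.37 on control and -1.76 ± 0.20 on WP (SD, n = 4). The difference was 0.82 ± 0.23 (SD, n = 4 calves), or 1.76-fold more signal on WP. By calf it was 0.85 (calf 21), 1.12 (calf 23), 0.73 (calf 24) and 0.58 (calf 25). Over all tested probes 12% were higher in 4 of 4 calves and 3.67% were higher without overlap.

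Within a row of the slide, the diets can be compared only between different calves. The slide held the arrays in a pair of rows. The WP arrays of calves 21 and 23 and the control arrays of calves 24 and 25 lay in row 1. A difference within a row thus drops the pairing and mixes diet with calf. Within row 1 the ITIH4 difference was 0.35 and within row 2 it was 1.29, both positive. With normexp, over all calves, it was 0.51. AHSG gave -1.53 within row 1 and -1.46 within row 2. ITIH4 and AHSG thus ran opposite ways between the diets, as the plot of levels by calf shows.

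**Figure D2:**
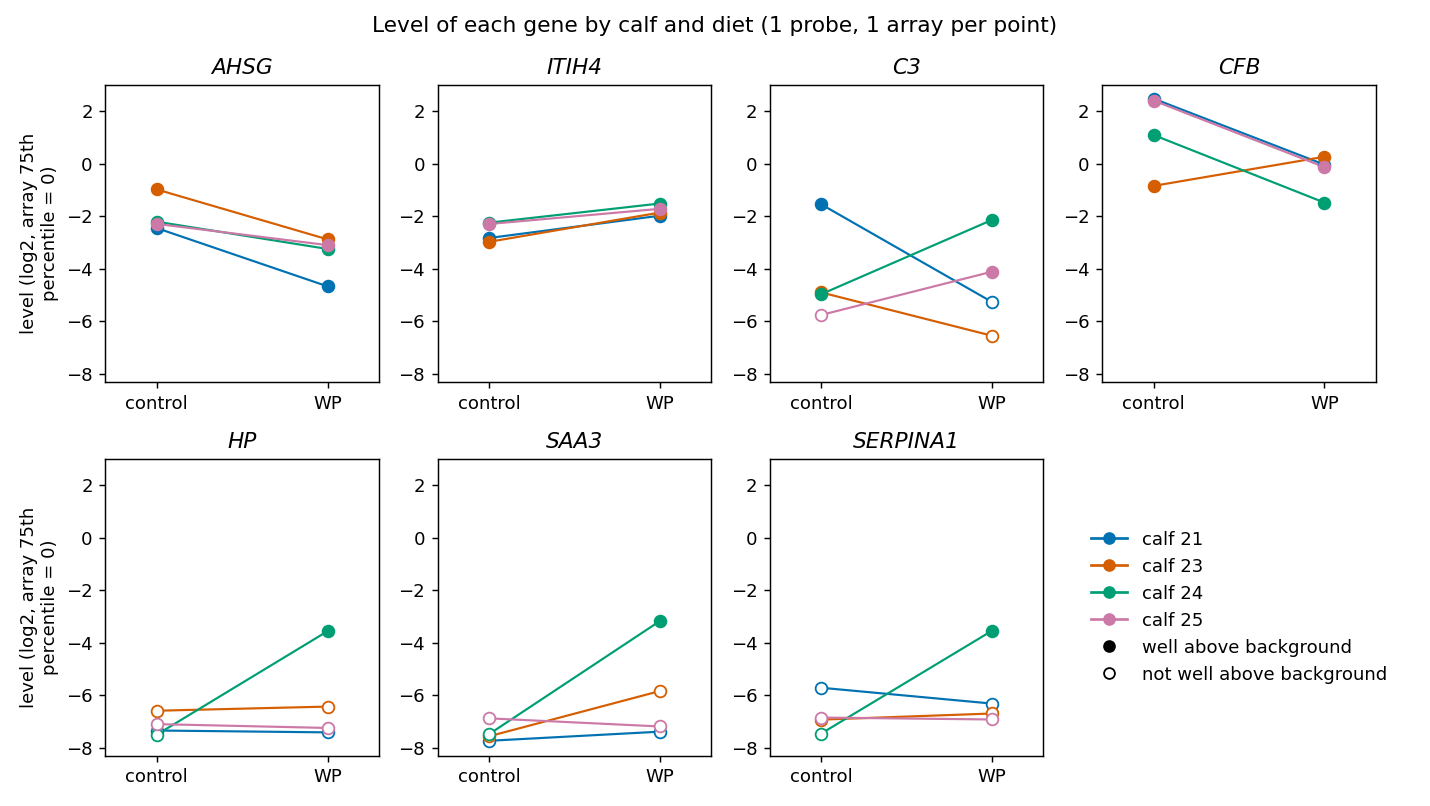
Level of the 7 genes on each array, in log2 with the 75th percentile of the array at 0, on the control diet (left) and on WP (right). Each line is 1 calf, filled points are well above background and open points are not; AHSG is lower and ITIH4 higher on WP in all 4 calves, CFB is lower in 3, and HP, SAA3 and SERPINA1 are filled on the WP array of calf 24 alone.

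CFB encodes complement factor B, the protease of the alternative pathway. It was lower on WP in 3 of 4 calves. The probe, printed because it is the only reading of this gene, lies at chromosome 23, 27225318 to 27225377 on UMD 3.1, minus strand.
CFB: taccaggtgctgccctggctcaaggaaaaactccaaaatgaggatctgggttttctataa

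On the control diet CFB read 1798 (calf 21), 1120 (calf 25), 603 (calf 24) and 160 (calf 23). On WP it read 194, 214, 102 and 243 in the same order of calves. The control arrays thus spread widely and the WP arrays lay close together, and the diets overlapped through calf 23, the lowest of the control arrays and the highest of the WP arrays. The level was 1.29 ± 1.55 on control and -0.34 ± 0.78 on WP, with a range of 3.32 across control arrays and 1.75 across WP arrays. The difference was -1.63 ± 1.83 (SD, n = 4 calves). Calves 21, 24 and 25 lay close together at -2.51, -2.57 and -2.53, whereas calf 23 gave 1.11. Leaving calf 23 out gave -2.54. With normexp it was -1.47, within slide row 1 -1.63 and within slide row 2 -1.62. The all-probe median was 0.09, so CFB lay 1.71 below it.

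C3 encodes the central complement component, on which all routes of activation meet. Its signal was lower on WP in calves 21 and 23 and higher in calves 24 and 25. Its probe, which lies at chromosome 7, 19024040 to 19024099 on UMD 3.1, plus strand, is shown because its readings cross the background.
C3: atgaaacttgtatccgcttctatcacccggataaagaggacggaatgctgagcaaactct

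The C3 signal was 111 on the control array of calf 21 and 9.66, 9.04 and 3.92 on those of calves 23, 24 and 25. On WP it was 5.18, 2.16, 65.0 and 13.6 in calves 21, 23, 24 and 25. It was above background on 3 control arrays and 2 WP arrays, so that the differences below hold values with only a bound. They were -3.72 (calf 21), -1.65 (calf 23), 2.83 (calf 24) and 1.65 (calf 25), with a mean of -0.22 ± 3.0 (SD, n = 4 calves). The diets overlapped over almost their whole range. Without calf 21 the mean was 0.94 and without calf 24 it was -1.24.

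C3 differed between the rows of the slide. In all 4 calves the array in row 2 had the higher C3 level, by 2.46 ± 1.01 (SD, n = 4 calves). In calves 21, 23 and 25 the row 1 array was not above background, so this size rests on unmeasured levels. In calf 24 the row 2 array was the WP array that stands apart. Each calf had an array in each row and the diet order is not given, so row and sampling period cannot be told apart. Over the 10194 probes tested for the row, 10.5% were higher and 10.7% lower in row 2 in 4 of 4 calves. This comparison was chosen after seeing the values, and in a limma fit with calf, row and diet C3 had an adjusted p of 0.283 for the row, with 0 of 10194 probes past the threshold and 1319 (12.9%) at an unadjusted p under 0.05. For the row AHSG, ITIH4 and CFB gave 0.57 ± 1.73, -0.16 ± 0.95 and -0.93 ± 2.39, higher in row 2 in 2, 2 and 1 of 4 calves. Markers of macrophages and dendritic cells, which make C3, had median differences between diets of -1.20, -0.06, 0.64 and 0.81 in calves 21, 23, 24 and 25, and of lymphocytes and plasma cells of -1.03, -0.03, 0.37 and 0.29. Fibroblast markers gave medians of -0.63, 0.56, 1.12 and 1.38, and rumen epithelium markers 0.53, 0.28, -0.21 and -0.08. CD14, a macrophage and dendritic marker, gave -0.59, 0.09, -0.23 and -0.21. Of the 9 macrophage and dendritic markers on the array, 7 were above background on all 8 arrays. Their summed level ran from 4.94 to 13.9 on control and from 5.18 to 10.1 on WP. The part of any of these cells in the C3 signal was not tested.

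HP, SAA3 and SERPINA1 were at background. HP encodes haptoglobin, which binds free haemoglobin; SAA3 a serum amyloid A protein; SERPINA1 the inhibitor of neutrophil elastase, alpha-1-antitrypsin. On 7 of the arrays the HP signal was 1.17 to 2.98, that of SAA3 1.19 to 3.51 and that of SERPINA1 1.60 to 6.13, none of them well above background. On the WP array of calf 24 they read 24.1, 31.5 and 24.4, where probes that were dim everywhere else had a median signal of 16.7 and the lowest signal called well above background was 16.9. The HP probe lies at chromosome 18, 39173512 to 39173571, and the SERPINA1 probe at chromosome 21, 59582029 to 59582088, both on UMD 3.1, minus strand. The SAA3 probe was designed from an expressed sequence tag, from base 923 on; the array design gives it no position, and whether it reads the SAA3 transcript was not settled.

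For these 3 genes no fold is given, because the mean WP level lay below the lowest level that could be measured on the control arrays. Their differences of 0.97 ± 1.98 for HP, 1.52 ± 2.04 for SAA3 and 0.87 ± 2.06 for SERPINA1 (SD, n = 4 calves) came from calf 24, with 3.94, 4.31 and 3.91. In the other calves the differences ran from -0.15 to 0.16 for HP, from -0.31 to 1.72 for SAA3 and from -0.60 to 0.23 for SERPINA1. A difference between the diets was not detectable for these 3 genes at the sensitivity of their probes.

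**Figure D3:**
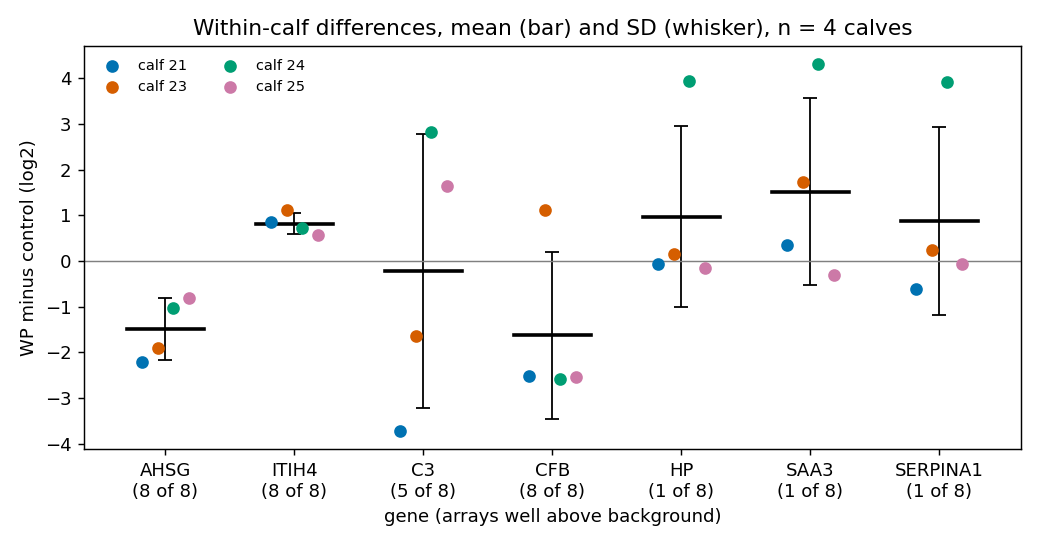
WP minus control in log2 for each gene and calf (coloured points), with the mean (bar) and SD (whisker) over 4 calves and the number of arrays well above background under each name. The points of AHSG all lie below 0 and those of ITIH4 above 0, calf 23 is the exception in CFB, and calf 24 sets the means of HP, SAA3 and SERPINA1.

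Among the 4 genes above background on at least 4 arrays, levels over the 8 arrays ran mostly apart. Pearson's r was -0.68 between AHSG and ITIH4, -0.44 between CFB and ITIH4 and 0.16 between AHSG and CFB, and within 0.1 of 0 for C3 with each of the others. These are descriptions over 8 arrays that share 4 calves. AHSG and ITIH4 were taken for their direction in every calf, so the diet difference enters their r. Of 9744 other named genes, among those whose levels followed each member most closely were ATP6V1C1 and ABHD6 for AHSG (r of 0.96 and 0.96), WTIP, DDX20 and REM1 for ITIH4 (0.99, 0.95 and 0.95), B3GNT8, LRRC8D and UBE2L3 for CFB (0.99, 0.95 and 0.94), and NDUFAF2, ZDHHC19 and CDV3 for C3 (0.99, 0.97 and 0.97). With so many genes searched over 8 arrays, values of this size carry no test.

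Of the other serum amyloid A genes, M-SAA3.2 and SAA2 passed the filter. M-SAA3.2, whose product is the form secreted by mammary and other epithelia, was above background on 6 of 8 arrays. Its probe lies at chromosome 29, 26759257 to 26759320 on UMD 3.1. On the control diet its signal was 136, 28.2, 109 and 99.7 in calves 21, 23, 24 and 25, above background on 4 of 4 arrays. On WP it was 5.15, 14.3, 15.3 and 18.3, above background in calves 23 and 25 alone, and the other WP values are bounds only. The diets did not overlap in signal. Over all tested probes 1.19% were lower without overlap in level. M-SAA3.2 was named by the rule of 1 direction in 4 of 4 calves. The difference was -4.03 (calf 21), -0.47 (calf 23), -2.85 (calf 24) and -2.59 (calf 25), with a mean of -2.48 ± 1.48 (SD, n = 4 calves), and -0.78 with normexp. As in CFB, calf 23 was the lowest of the control arrays and had the least negative difference. Between M-SAA3.2 and CFB r was 0.81 over the 8 arrays, and the diet differences of both genes enter it. M-SAA3.2 had an adjusted p of 0.658 in limma, so it did not pass the threshold of 0.05. SAA2, named after its values were seen, was dim, with signals of 6.50 to 11.9 on control and 7.42 to 12.2 on WP, above background on 3 control and 2 WP arrays. Its difference was 0.31 ± 0.44 (SD, n = 4 calves), positive in 3 of 4 calves, and -0.44 with quantile scaling.

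Other acute-phase plasma proteins gave 13 tested genes of 31 on the array. Of these 7 were negative and 6 positive, with a median of -0.20, and 0 passed the adjusted threshold in limma, as did 0 of all 10236 probes (0%, smallest adjusted p 0.658); 5 of the 13 had an unadjusted p under 0.05, as did 715 of all probes, 5.24% higher and 1.75% lower on WP. LBP, which hands bacterial endotoxin to its receptor, was bright, with signals of 970, 465, 270 and 430 on control and 142, 123, 130 and 529 on WP in calves 21, 23, 24 and 25. It was lower on WP in 3 calves and higher by 0.15 in calf 25, and the diets overlapped. SERPINA3-2, a serpin of the antichymotrypsin group, gave 0.76 ± 0.62, ITIH5, a relative of ITIH4, 0.49 ± 0.42 and HAMP, the iron hormone hepcidin, 0.63 ± 0.49 (SD, n = 4), all positive in 4 of 4 calves, though with quantile scaling HAMP was -0.05 and SERPINA3-2 0.25. These 3 genes were named by the rule of 1 direction in 4 of 4 calves, and HAMP in calf 25 was at 0.0033. Of all tested probes 35.6% were below 0 and 12% were higher in 4 of 4 calves. Of the 31 genes 7 were above background on no array, among them PTX3, FGA, AMBP, ITIH3 and KNG1. With 1 calf left out the median of the list took either sign.

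Complement components other than C3 and CFB gave 6 tested genes of 17 on the array, 5 positive and 1 negative, with a median of 0.38 and 0 past the adjusted threshold in limma (0 also at an unadjusted p under 0.05). Over all tested probes 35.6% were below 0, and the median was 0.09, or -0.015 with quantile scaling. CFP, properdin, which stabilises the enzyme that contains factor B, gave 0.54 ± 0.64. It was named for a positive difference in 4 of 4 calves, which 12% of all tested probes had. In calf 24 the difference was 1.48, and without that calf the mean was 0.22. CFB's other partner in the alternative pathway, the protease CFD, gave 0.26 ± 1.23, with 0.86 without calf 21 and -0.05 without calf 24. C4A, of the classical pathway, gave 0.37 ± 0.82, and from 0.11 to 0.69 with 1 calf left out. C7, of the membrane attack complex, gave 0.39 ± 3.30, with -3.89 in calf 21 and 4.08 in calf 25; the control array of calf 25 was not above background, so the value of that calf and the mean rest on an unmeasured level. Without calf 25 C7 gave -0.85. The late components C6, C8A and C9 were above background on no array. C1R, C1S, C2 and the C1Q genes have no probe under those names.

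Complement regulators and receptors gave 8 tested genes of 19 on the array, 6 positive and 2 negative, with a median of 0.16, 0 past the adjusted threshold in limma and 0 at an unadjusted p under 0.05. Over all tested probes 35.6% were below 0. CFI, the protease that inactivates cut C3, gave -0.06 ± 0.40. The membrane regulators CD55 and CD59, which protect cells from complement, gave -0.17 ± 0.69 and 0.11 ± 0.48 (SD, n = 4). CFI, CD55 and CD59 each took the other sign when 1 calf was left out, at 0.05 without calf 23, 0.14 without calf 24 and -0.03 without calf 21. CD46 was above background on the WP array of calf 24 alone. The receptors C5AR1 and CR2 and the integrin chain ITGAM were above background on no array.

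Cytokines and signalling proteins of the acute-phase response gave 26 tested genes of 31 on the array, 17 negative and 9 positive, with a median of -0.09, and 0 past the adjusted threshold in limma; 6 had an unadjusted p under 0.05, beside the 5.24% higher and 1.75% lower over all probes. IL1A, which induces acute-phase genes, read 268, 214, 187 and 159 on control and 58.3, 78.0, 47.0 and 72.4 on WP, without overlap of the diets. Of all tested probes 35.6% were below 0, and 1.19% were lower without overlap of the diets. The level of IL1A over the 8 arrays had an r of 0.72 with CFB, 0.69 with AHSG and -0.88 with ITIH4. IL1A, AHSG and ITIH4 each separate the diets. AHSG and ITIH4 were taken for their direction in every calf, and IL1A was named for its own as well as by function. The diet difference thus enters these r, which carry no test. OSM, oncostatin M, above background on 6 arrays, gave 0.81 ± 0.49 and 0.09 with quantile scaling. STAT3, the factor through which interleukin 6 acts, gave -0.08 ± 0.09 and was above background on every array. Its inhibitor SOCS3 was above background on the WP array of calf 24 alone, and IL6 has no probe under that name. IL1B, above background on 6 arrays, gave -0.10 ± 1.34 and took either sign with 1 calf left out. Also in this list were IL1RN at -0.47 ± 0.20 and IL22RA1 at -1.19 ± 0.61 (SD, n = 4).

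**Figure D4:**
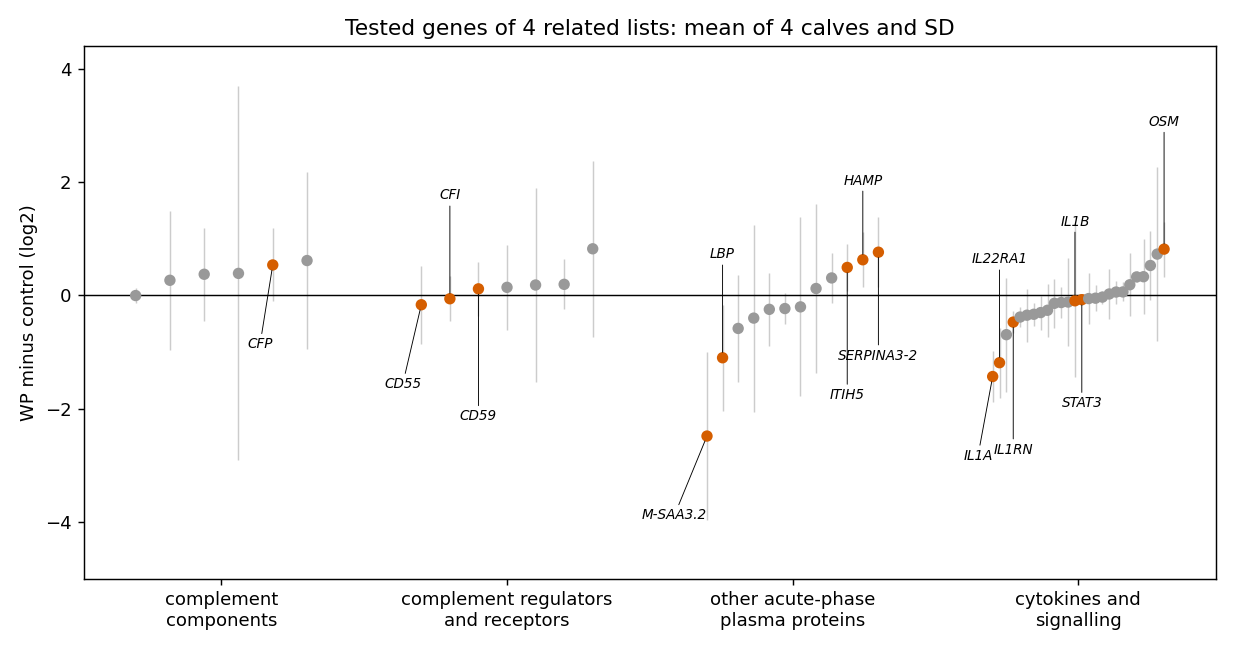
WP minus control in log2 for the tested genes of 4 related lists, as the mean of 4 calves (points) with the SD (whiskers), sorted within each list; orange points are the genes named by rule, and FETUB, with an outlier spot on the control array of calf 23, and 1 regulator are not drawn. M-SAA3.2 at -2.48 lies lowest and SERPING1 at 0.82 highest.

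Markers of other cell types in rumen wall gave differences too, with 0 past the adjusted threshold in limma in any list. Over all probes 35.6% were below 0 and the rest above or at it. Of 9 tested fibroblast markers 8 were positive with a median of 0.66, of 9 endothelium markers 9 with a median of 0.42, and of 5 smooth muscle markers 5 with a median of 0.46. Calf 21 went the other way for fibroblasts and endothelium, with medians of -0.63 and -0.38. Without calf 21 the medians were 1.26 and 0.75. Without calf 25 that of fibroblasts was 0.30, and without calf 23 those of endothelium and smooth muscle were 0.09 and 0.27. Their summed levels were 9.80 to 39.1 on control and 17.9 to 42.8 on WP for fibroblasts, 4.07 to 7.49 and 5.41 to 10.01 for endothelium, and 11.4 to 18.4 and 15.6 to 21.1 for smooth muscle. CDH5 was the 1 endothelium marker above background on no array. The rumen epithelium markers had a median of 0.04, 6 negative and 8 positive, with sums of 860 to 1123 on control and 803 to 1178 on WP. Neutrophil markers had a median of 0.05 over 5 tested genes with sums of 423 to 694 and 399 to 510. MMP9 was above background on no array. S100A12, at signals of 84583 to 131344, and S100A8, at 8554 to 112215, carry these sums. Of the 11 neutrophil markers on the array only 3 were above background on all 8 arrays, S100A12 and S100A8 among them. Lymphocyte and plasma cell markers had a median of -0.21 over 10 tested genes with sums of 3.51 to 6.59 and 3.14 to 4.33, and MS4A1 was above background on no array. Red blood cell markers had a median of 0.14 over 2 tested genes with sums of 6.54 to 8.54 and 7.19 to 9.19. With 1 calf left out, the medians of rumen epithelium, neutrophil and lymphocyte markers took either sign. The part of these cells in the differences of ITIH4, CFB and AHSG was not tested.

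The 4 measured genes were followed through each way of processing the arrays. AHSG stayed between -1.94 and -0.50 and CFB between -2.54 and -1.31. ITIH4 stayed between 0.35 and 1.29, and C3 ran from -1.24 to 0.94 and has no set direction. For AHSG and ITIH4, taken for the same direction in every calf, leaving out a calf could not turn the sign.

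**Figure D5:**
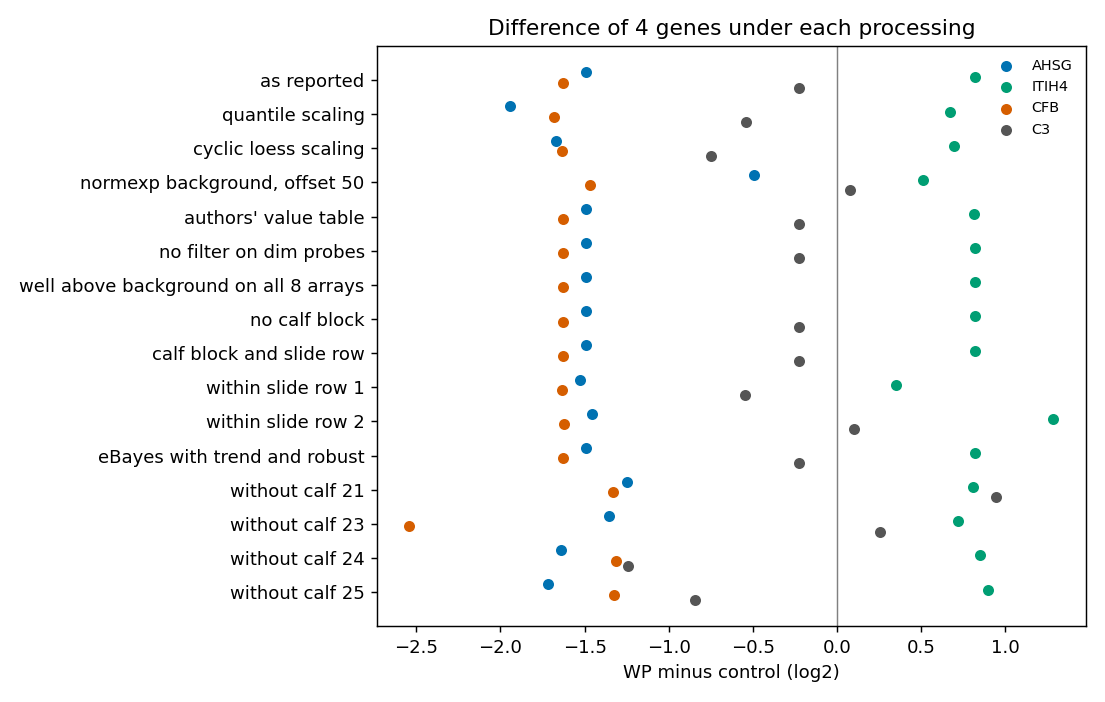
WP minus control in log2 for AHSG, ITIH4, CFB and C3 (points) under each processing of the arrays, with calves left out in turn at the bottom. AHSG and CFB lie below 0 and ITIH4 above 0 under each processing drawn, and C3 falls on both sides of 0. Changes to the filter, the blocking or the variance model cannot move these values, and the authors' value table can only shift all genes alike.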

How the data were processed

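Rumen epithelium RNA was measured on 8 single-colour Agilent arrays, all on 1 slide with 1 scan. Spot intensity, background-corrected by the scanner software, was read from the deposited files, whose headers name Feature Extraction 11.0.1.1 while the submitters' processing notes name 9.5. A value table from the authors, on a log2 scale, followed log2 of the processed signal with slopes of 1.00 minus a constant per array; its medians ran from -3.07 to -2.26, and it served as an alternative.

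Control spots (536 an array) and outlier spots were dropped, spots of a probe were averaged, and log2 signals were scaled by the 75th percentile over probes. Probes that exceeded background on 4 or more of the 8 arrays entered a limma fit (limma 3.58.1, R 4.3.3), with calf as a block since each calf number stands for 1 animal fed both diets in a cross-over. P-values were adjusted by Benjamini-Hochberg at 0.05, two-sided. Deviations of a calf's 2 arrays correlated with r of 0.00897, 0.195, 0.0600 and 0.0475 in calves 21, 23, 24 and 25. No spot was saturated. The number of arrays limits the precision.

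Gene names came from RefSeq (ARS-UCD2.0): accessions matched 11194 probes, symbols 3085 and older symbols 38, while 691 kept the design's name. The 7 genes and all lists were chosen with earlier results of these data known. Genes of the related lists were named by rule: up to 4 a list with 1 direction in 4 of 4 calves, smallest p first, and 13 partners chosen by function. ALB, APOH, TF, CYP2E1, ARG1, APOA2, CD14, SAA2, C4A, C7, CFD and SERPING1 were named outside that rule, after their values were seen. So were the genes given only as above or below background, apart from CD46 and SOCS3. A few genes that the rules name are not reported here. Leaving out calves for the cell type lists and single listed genes was chosen after seeing the data. The procedure was tested on simulated data.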

Additional observations from a re-analysis of the deposited data

Results flagged for a closer look

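In the control arrays the AHSG level of calf 23, -0.97, stood far from those of the other calves, which lay between -2.44 and -2.20; the gap to the nearest, divided by the range of the group, was 0.835, above Dixon's critical value for 4 arrays. Among 14 groups of 4 arrays looked at (7 genes on 2 diets) this was the only one past that value, and chance alone gives about 1 in 20 such groups. Without calf 23 the AHSG difference was -1.36.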

How the results depend on the processing

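No probe passed the adjusted threshold in limma under any of 15 alternatives. AHSG, ITIH4 and CFB kept their direction under each alternative run, but part of this was fixed in advance. AHSG and ITIH4 were taken for the same direction in every calf, so leaving out 1 calf could not turn them. Changes to the filter, the blocking or the variance model leave a gene's mean difference as it was. So does averaging over the probes of a gene that has 1 probe. The authors' value table, the same signal minus a constant per array, shifts all genes alike and left AHSG at -1.49 and ITIH4 at 0.82. The sign of SAA3, at background on 7 arrays, says nothing about stability. With normexp AHSG was -0.50 and ITIH4 0.51, and ITIH4 was 0.35 within slide row 1 and 1.29 within slide row 2. Values within a slide row compare different calves. C3 turned to 0.079 with normexp, 0.10 within slide row 2, 0.94 without calf 21 and 0.25 without calf 23; leaving out 1 calf at a time it ran from -1.24 to 0.94. HP turned to -0.12 with cyclic loess scaling and -0.020 without calf 24, ranging to 1.34 with 1 calf left out. SERPINA1 turned to -0.13 with quantile scaling, -0.13 with cyclic loess and -0.15 without calf 24, ranging to 1.36. With 1 calf left out AHSG ran from -1.72 to -1.25, ITIH4 from 0.72 to 0.90, CFB from -2.54 to -1.31 and SAA3 from 0.59 to 2.13. The cause of these changes was not tested.

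Probes with an unadjusted p under 0.05 numbered 536 higher and 179 lower on WP. Quantile scaling gave 192 and 336 (63.6% lower, against 25.0%), cyclic loess 264 and 411, normexp 1134 and 293, no filter on dim probes 802 and 101, and slide row 2 alone 355 and 109. With the calf block and slide row there were 668 and 349, and with no calf block 599 and 186. With 1 calf left out, higher counts ran from 264, without calf 24, to 714, and lower counts from 69, without calf 21, to 221. Medians of the 4 related lists ran from 0.11 to 0.92 for complement components and from -0.14 to 0.55 for regulators and receptors. They ran from -0.38 to 0.48 for other acute-phase proteins and from -0.17 to -0.015 for cytokines and signalling. The upper ends of 0.92, 0.55 and 0.48 all came with no filter on dim probes, which lets in probes at background. Signals near background limit C3, HP, SAA3 and SERPINA1, which have no set size.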

Other observations

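TTR and RBP4 encode transthyretin and the retinol-binding protein it carries in plasma, both of which go down in the acute phase, and they belong to the hepatocyte markers. RBP4 was above background on 8 of 8 arrays, with signals of 86.1, 772, 828 and 171 on control and 136, 840, 910 and 320 on WP in calves 21, 23, 24 and 25. Its difference was 0.72 ± 0.51 (SD, n = 4 calves), positive in each calf, while its level differed far more between calves than between diets. Over all tested probes 12% were higher in 4 of 4 calves. TTR read 48.3, 30.9, 19.5 and 53.6 on control and 1.29, 6.19, 209 and 20.4 on WP, with differences of -4.53, -1.81, 3.41 and -1.55. It was not above background on the WP arrays of calves 21 and 23, so their differences and the mean rest on unmeasured levels. It has no set direction, since its mean was -1.12 with all calves and 0.02 without calf 21. Both were picked after their values were seen.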
